A study of Homo sapiens with 6 samples.

Results

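The genes described here are 4 matrix metalloproteinases and 3 tissue inhibitors of metalloproteinases, measured by ribosome footprints in WPMY-1 cells, a myofibroblast line from the stroma of a human prostate. They were MMP1 (ENSG00000196611), MMP2 (ENSG00000087245), MMP3 (ENSG00000149968), MMP14 (ENSG00000157227), TIMP1 (ENSG00000102265), TIMP2 (ENSG00000035862) and TIMP3 (ENSG00000100234). Each was taken by its Ensembl gene ID, cut before the version, from the 62492 features of the deposited count table, and all 7 were found there. The symbols came with this list of IDs, since the table itself holds no gene names. RefSeq (GRCh38.p14) places MMP1 and MMP3 on chromosome 11, MMP14 on 14, MMP2 on 16, TIMP2 on 17, TIMP3 on 22 and TIMP1 on X. The cells carried either a short hairpin RNA against TRMT61A (sh61A, 3 libraries) or a control hairpin (shcontrol, 3 libraries). TRMT61A is the catalytic subunit of the enzyme that places 1-methyladenosine in tRNA. The study asked how TRMT61A bears on translation in these cells. The level of TRMT61A itself was not analysed here, so the labels of the knockdown were not checked against it, and markers of stromal cells were not analysed either. The labels do not say if replicates were grown as separate cultures or came from 1 clone, so the p-values measure only a spread among libraries that may be technical.

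Matrix metalloproteinases are zinc-dependent enzymes that cut proteins of the extracellular matrix, and most are made as inactive precursors. The tissue inhibitors, or TIMPs, block the active enzymes by binding in their catalytic cleft. At the cell surface the membrane-bound enzyme MMP14 uses TIMP2 as a bridge to capture the MMP2 precursor and activate it, so TIMP2 both inhibits MMP14 and takes part in its work. Stromal cells are a main source of these proteins in many tissues. A footprint count is the number of sequenced mRNA fragments that ribosomes had shielded from a nuclease, so it reflects both the amount of an mRNA and how densely ribosomes sit on it, and the results below do not divide a change between these.

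The sh61A libraries held 12704354 to 17752247 counts and the shcontrol libraries 6771455 to 8008896. The 7 genes together held 8024 to 12276 counts in sh61A libraries and 4635 to 4705 in shcontrol libraries. Levels are given in CPM, the count scaled to a common library total of 1000000, after TMM scaling, which sets a library's total so that most features change little between libraries. The TMM factors ran from 0.858 to 0.974 in sh61A and from 0.923 to 1.21 in shcontrol. The 50 features with the most counts held 69.7% to 73.0% of the sh61A counts and 61.4% to 70.7% of the shcontrol counts, and the part of this difference in the results below was not tested beyond the scalings given with them. Levels in CPM are compared between libraries for 1 gene at a time, because no transcript lengths were at hand. Ratios and shares below set counts of different genes side by side without a length correction, so they do not rank genes by level.

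Of the 6 genes that could be tested, MMP14 was the only one whose footprints passed the test between groups, and they were 2.77-fold higher in sh61A. TIMP2 had a fold change of 1.85, and MMP2, TIMP1 and TIMP3 had fold changes of 0.876, 1.25 and 1.18, none of which passed. MMP3 and MMP1 had few footprints, nearly all of them in sh61A libraries, which were also the deeper ones. Those of MMP1 came from 2 sh61A libraries. Features were tested where enough libraries reached about 10 counts at the median depth, and 6 of the 7 genes passed that filter, with MMP1 left out. MMP3 reached it in 3 sh61A libraries and 1 shcontrol library, so it was tested through the group in which it was higher. Of the 6 tested, 1 was called higher and 0 lower at an adjusted p under 0.05 in edgeR's quasi-likelihood test, where 1.48% of the 11653 tested features were called higher and 1.64% lower. That count is a single gene, and nothing is read from it about the list. Leaving out MMP3, all sh61A libraries lay above all shcontrol libraries in 2 of the other 5 (MMP14 and TIMP2) and below them in 1 (MMP2), where 12.2% and 12.7% of all tested features were so separated. The median log2 fold change of these 5 was 0.33, beside -0.0047 over all tested features. With so few genes these values describe the list and support nothing about it.

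**Figure D1:**
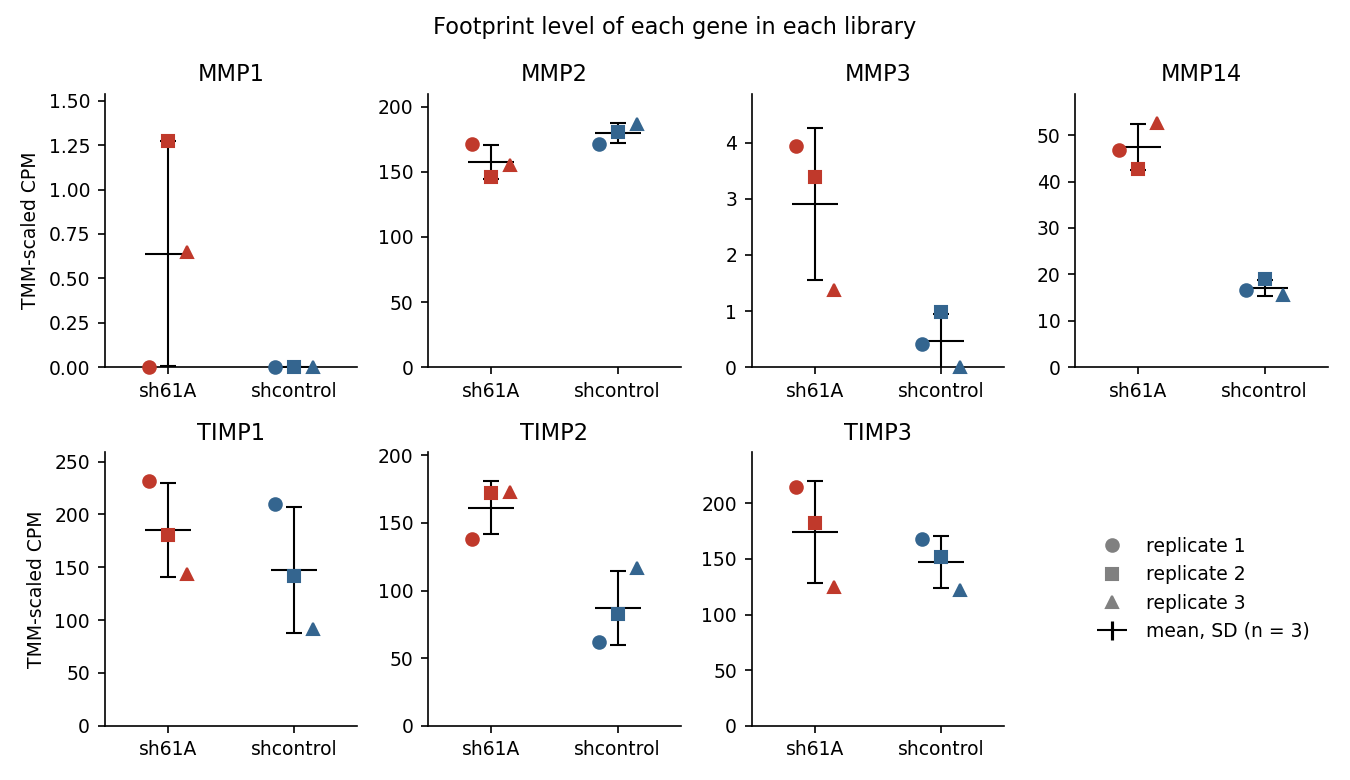
Footprint level of each of the 7 genes in TMM-scaled CPM (linear axis from 0, a separate scale for each gene). Points are single libraries of sh61A (red) and shcontrol (blue), and bars give the mean and SD (n = 3). The MMP14 points lie from 42.7 to 52.7 CPM in sh61A and from 15.7 to 19.0 CPM in shcontrol, while the groups of TIMP1 and TIMP3 overlap.

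MMP14 encodes the membrane-anchored collagenase also called MT1-MMP, which cuts fibrillar collagen around the cell. Its footprints numbered 713, 504 and 650 in sh61A libraries 1 to 3, against 123, 155 and 138 in shcontrol libraries 1 to 3. At 46.9, 42.7 and 52.7 CPM in sh61A, against 16.7, 19.0 and 15.7 CPM in shcontrol, every sh61A library lay far above every shcontrol library. The means were 47.4 ± 5.0 CPM in sh61A and 17.1 ± 1.7 CPM in shcontrol (SD, n = 3 each). The log2 fold change was 1.47 ± 0.26 (SE, 95% interval 0.91 to 2.03), with an adjusted p of 0.0126 in edgeR. In fold terms the interval ran from 1.88 to 4.08. Intervals are for 1 gene and are not adjusted for the number of features tested. Among all tested features, 4.85% had a larger log2 fold change.

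The coefficient of variation of MMP14 after TMM scaling was 10.5% in sh61A and 10.04% in shcontrol. As CPM of the library total it was 16.4% in sh61A and 19.8% in shcontrol. The 200 tested features nearest in average log2 CPM had median coefficients of 21.1% in sh61A and 20.0% in shcontrol after TMM scaling. Counting error alone would give about 4.04% in sh61A and 8.52% in shcontrol. As CPM of the library total, with no scaling factor, MMP14 stood at 40.2, 37.9 and 51.2 in sh61A and at 15.4, 22.9 and 18.8 in shcontrol, still with no overlap. Its log2 fold change then was 1.18, with an adjusted p of 0.0557 in edgeR, while the median over all tested features moved to -0.30. The call was also lost without shcontrol library 2 (log2 fold change 1.55, adjusted p = 0.0618 in edgeR) and without shcontrol library 3 (1.41, adjusted p = 0.0689), in fits with fewer samples. Over all 15 alternatives the adjusted p ran from 2.11e-05 to 0.0689.

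The 250 bases before the MMP14 start are printed because this was the called gene. They are RefSeq sequence of the GRCh38.p14 build, plus strand, at chr14:22836335-22836584, upstream of the first exon. Footprint counts do not measure this region. Capitals mark the letters of a CCAAT box (CCAAT, here on the other strand) and a GC box (GGGCGG), found by a search of both strands.
MMP14: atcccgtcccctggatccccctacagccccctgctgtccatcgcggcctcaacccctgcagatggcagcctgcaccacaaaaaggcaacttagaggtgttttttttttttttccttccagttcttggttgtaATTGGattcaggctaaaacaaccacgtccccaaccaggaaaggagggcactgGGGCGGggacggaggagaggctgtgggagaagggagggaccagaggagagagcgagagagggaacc
The GC box ends 60 bases before the start. GGGCGG occurred in 42.6% and CCAAT in 32.0% of the 35116 RefSeq promoter windows of this length, so both are common. The search for a TATA box (TATAAA, in 10.7% of windows) and an AP-1 site (TGANTCA, in 6.57%) found no such letters in the MMP14 window, nor in those of TIMP1 and TIMP3, and no 2 matches overlapped. The TIMP1 window held 2 GC boxes, and the TIMP3 window held 5 and a CCAAT box. The other 4 genes, MMP1, MMP2, MMP3 and TIMP2, had no match in the promoter table.

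**Figure D2:**
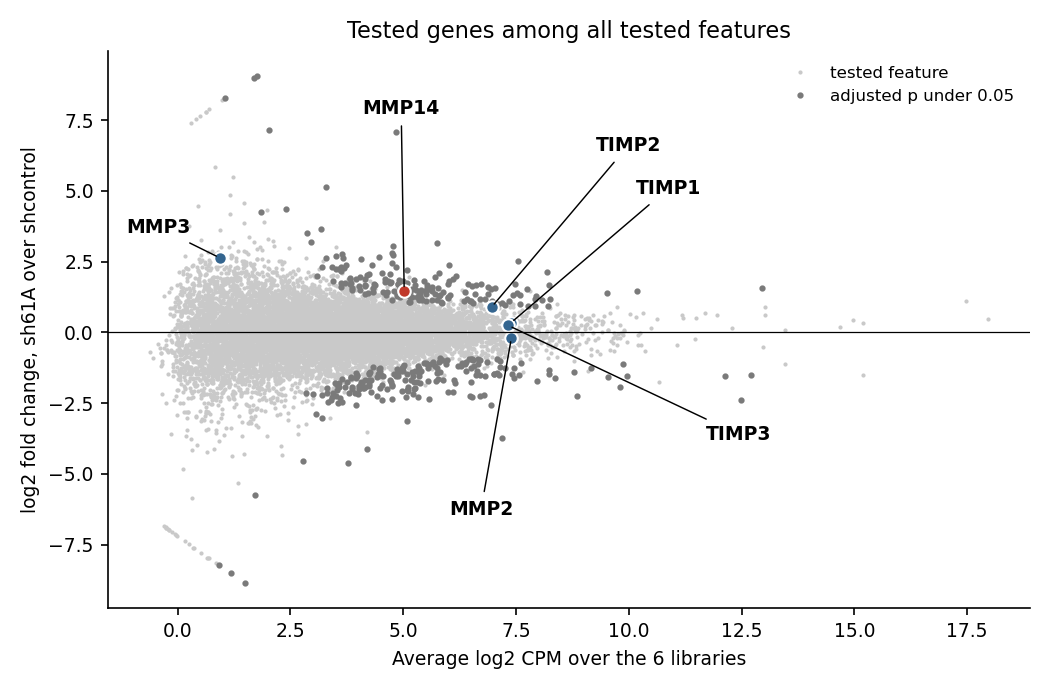
Change in footprints against average level for the 11653 tested features. The x axis is the average log2 CPM over the 6 libraries and the y axis the log2 fold change, sh61A over shcontrol. Light points are tested features, dark points those at an adjusted p under 0.05, the red point is MMP14 (1.47) and blue points are the other 5 tested genes, of which MMP3 (2.63) lies at the low-count end.

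MMP2, or gelatinase A, cuts denatured collagen and basement membrane collagen, and its precursor is the substrate of MMP14. It had 2606, 1725 and 1912 counts in sh61A libraries, against 1266, 1474 and 1649 in shcontrol libraries. In CPM these were 171.3, 146 and 155 in sh61A, against 171.7, 181 and 187 in shcontrol, so the groups just failed to touch. The means were 157 ± 13 CPM in sh61A and 179.8 ± 7.7 CPM in shcontrol (SD, n = 3 each). The log2 fold change was -0.19 ± 0.20 (SE, 95% interval -0.64 to 0.25), with an adjusted p of 0.742 in edgeR. The interval holds no change, and also a fall to 0.643 of the shcontrol level. Its coefficients of variation were 8.11% in sh61A and 4.29% in shcontrol after TMM scaling, and 7.73% in sh61A and 18.3% in shcontrol as CPM of the library total.

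MMP14 therefore took a larger part of the footprints on the 4 metalloproteinases. Its share was 21.1%, 22.1% and 25.1% in sh61A libraries, against 8.84%, 9.47% and 7.72% in shcontrol libraries. The widest Wilson 95% intervals were 20.4% to 23.8% in sh61A (library 2) and 7.46% to 10.4% in shcontrol (library 1), and such intervals cover counting error only. The share of MMP2 was 75.5% ± 1.6 in sh61A and 91.1% ± 1.1 in shcontrol (SD, n = 3 each). A ratio of 2 genes within a library does not depend on how libraries are scaled. MMP14 had 0.274, 0.292 and 0.340 footprints for each MMP2 footprint in sh61A, against 0.0972, 0.105 and 0.0837 in shcontrol. These ratios did not overlap and differed 3.17-fold (geometric means). The exact permutation test (two-sided) gave p = 0.1, which is the smallest that 3 against 3 libraries allow, and 0.3 after adjustment over the 6 ratios examined. All of these ratios but that of summed inhibitors to summed enzymes were chosen after the values were seen. For MMP14 over MMP2, leaving out any 1 library kept its log2 difference between 1.57 and 1.74.

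**Figure D3:**
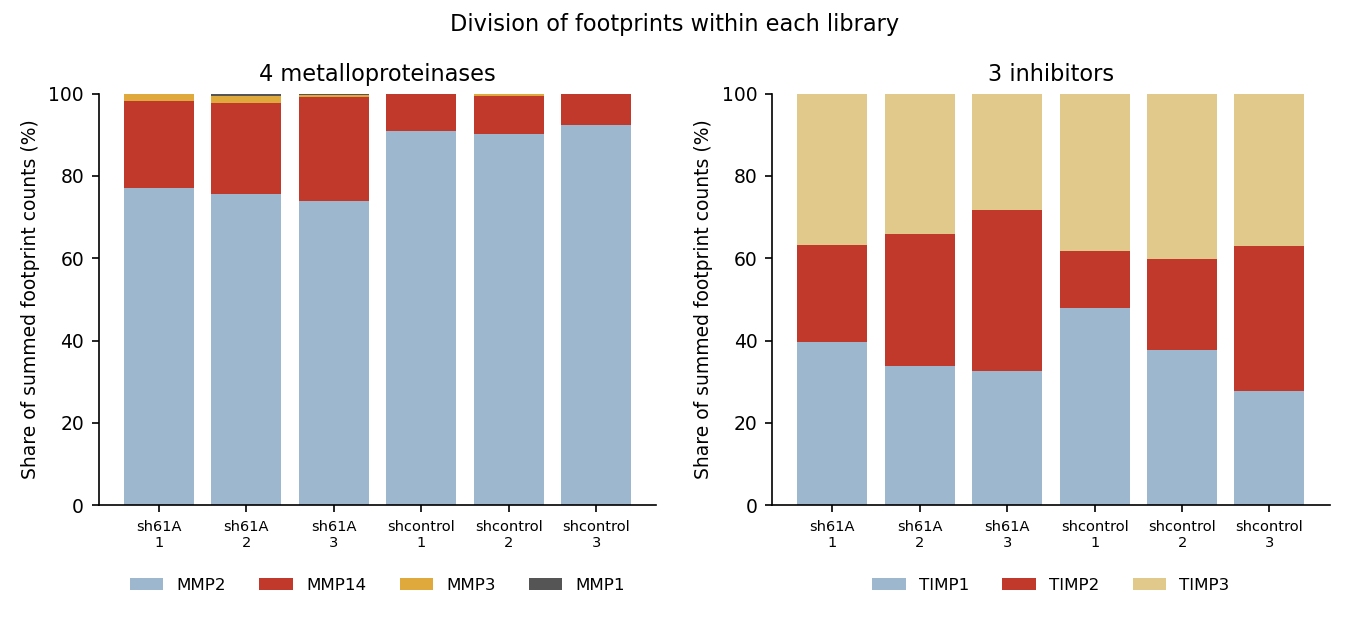
Division of footprint counts within each library (linear axis, percent), over the 4 metalloproteinases on the left and the 3 inhibitors on the right. Each bar is 1 library, with sh61A libraries left of shcontrol libraries. The MMP14 segment covers 21.1% to 25.1% of the sh61A bars and 7.72% to 9.47% of the shcontrol bars, while the TIMP2 segment varies from 14.03% to 39.2% across all libraries.

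MMP3, or stromelysin-1, degrades many matrix proteins and activates other metalloproteinases. It had 60, 40 and 17 counts in sh61A libraries, against 3, 8 and 0 in shcontrol libraries. In CPM these were 3.94, 3.39 and 1.38 in sh61A, against 0.407, 0.981 and 0 in shcontrol, with no overlap between groups. A count of 0 in shcontrol library 3 allows up to 3 counts, or 0.340 CPM. The levels from summed counts differed 6.58-fold, with a counting interval of 3.55 to 13.5. That interval pools the libraries of a group and leaves out the spread between them, so nothing is concluded from it. The fitted log2 fold change was 2.63 ± 1.45 (SE, 95% interval -0.54 to 5.79), with an adjusted p of 0.420 in edgeR. With 1 library left out the value ran from 2.04 to 3.80, and the adjusted p from 0.403 to 0.646. MMP3 thus did not pass at this depth, and its interval covers both no change and a change far larger than that of MMP14.

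MMP1, the interstitial collagenase, lies beside MMP3 in a cluster of metalloproteinase genes on chromosome 11. RefSeq also places the pseudogene WTAPP1 across both, so some of their few counts could belong to it. MMP1 had 0, 15 and 8 counts in sh61A libraries and no count in any of the 3 shcontrol libraries. Library 2 of sh61A gave 15 of the 23 counts, and library 1, the deepest of all, gave 0, so the groups overlapped. The summed sh61A level was 0.584 CPM, and the 23 counts have a 95% Poisson interval of 14.6 to 34.5. With its lower end set against 3 counts over the whole shcontrol group, the summed level was 3.01-fold higher. That value covers counting error in pooled counts only. It leaves out the spread between libraries, which ran from 0 to 15 counts in sh61A, so it is no bound on the change between groups. MMP1 was too low for the test with the filter. In edgeR without it the adjusted p was 0.424.

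TIMP2 inhibits MMP2 and MMP14 and, at low levels, serves MMP14 in activating the MMP2 precursor. It had 2106, 2031 and 2132 counts in sh61A libraries, against 455, 677 and 1026 in shcontrol libraries. In CPM these were 138, 172 and 173 in sh61A, against 61.7, 83.0 and 116 in shcontrol, with no overlap. The means were 161 ± 20 CPM in sh61A and 87.0 ± 27.5 CPM in shcontrol (SD, n = 3 each). The log2 fold change was 0.89 ± 0.26 (SE, 95% interval 0.32 to 1.46), and the adjusted p of 0.0954 in edgeR did not pass. The unadjusted p was 0.00526. Whether TIMP2 is called depended on the method, since DESeq2 gave an adjusted p of 0.0115 and limma voom 0.0479, within a range of 0.0115 to 0.426 over 15 alternatives of which 4 passed. The lower of these bounds came from DESeq2 and the upper from edgeR with library size alone, at a log2 fold change of 0.57. As CPM of the library total the groups overlapped, with 119, 153 and 168 in sh61A and 56.8, 99.98 and 139.97 in shcontrol.

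The TIMP2 level differed 1.25-fold between the lowest and the highest sh61A library and 1.89-fold among shcontrol libraries. TIMP2 had 0.808, 1.18 and 1.115 footprints for each MMP2 footprint in sh61A, against 0.359, 0.459 and 0.622 in shcontrol, with no overlap (exact permutation test, two-sided, p = 0.1, adjusted over the 6 ratios 0.3). For each TIMP2 footprint MMP14 had 0.339, 0.248 and 0.305 in sh61A, against 0.270, 0.229 and 0.135 in shcontrol. Those groups overlapped (exact permutation test, two-sided, p = 0.2, adjusted over the 6 ratios 0.3). With a smallest possible p of 0.1, this test could not show a difference between the changes of MMP14 and TIMP2, and nothing is concluded from it. MMP14 alone passed the test across features.

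TIMP1 is a secreted inhibitor of most soluble metalloproteinases and a weak inhibitor of MMP14. It had 3519, 2133 and 1767 counts in sh61A libraries, against 1550, 1156 and 805 in shcontrol libraries. In CPM these were 231, 181 and 143 in sh61A, against 210.2, 142 and 91.3 in shcontrol, and the groups overlapped widely. In both groups the level fell from library 1 to library 3. The means were 185 ± 44 CPM in sh61A and 148 ± 60 CPM in shcontrol (SD, n = 3 each). The log2 fold change was 0.33 ± 0.30 (SE, 95% interval -0.34 to 0.99), with an adjusted p of 0.692 in edgeR. RefSeq places TIMP1 within SYN1 on the opposite strand, and whether strand was used in counting is not stated, so some of its counts could belong to the other gene.

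TIMP3 differs from the other inhibitors in binding to the matrix itself, and it also blocks enzymes of the ADAM family. It had 3272, 2148 and 1538 counts in sh61A libraries, against 1238, 1235 and 1079 in shcontrol libraries. In CPM these were 215, 182 and 125 in sh61A, against 168, 151 and 122 in shcontrol, and the groups overlapped. The means were 174 ± 46 CPM in sh61A and 147 ± 23 CPM in shcontrol (SD, n = 3 each). The log2 fold change was 0.24 ± 0.25 (SE, 95% interval -0.31 to 0.79), with an adjusted p of 0.734 in edgeR, and the value with library size alone was -0.053. In RefSeq TIMP3 overlaps SYN3 and, on the same strand, the noncoding RNA LOC124905104, while TIMP2 overlaps CEP295NL and the noncoding RNA LOC124904068. Some of their counts could belong to these genes too.

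**Figure D4:**
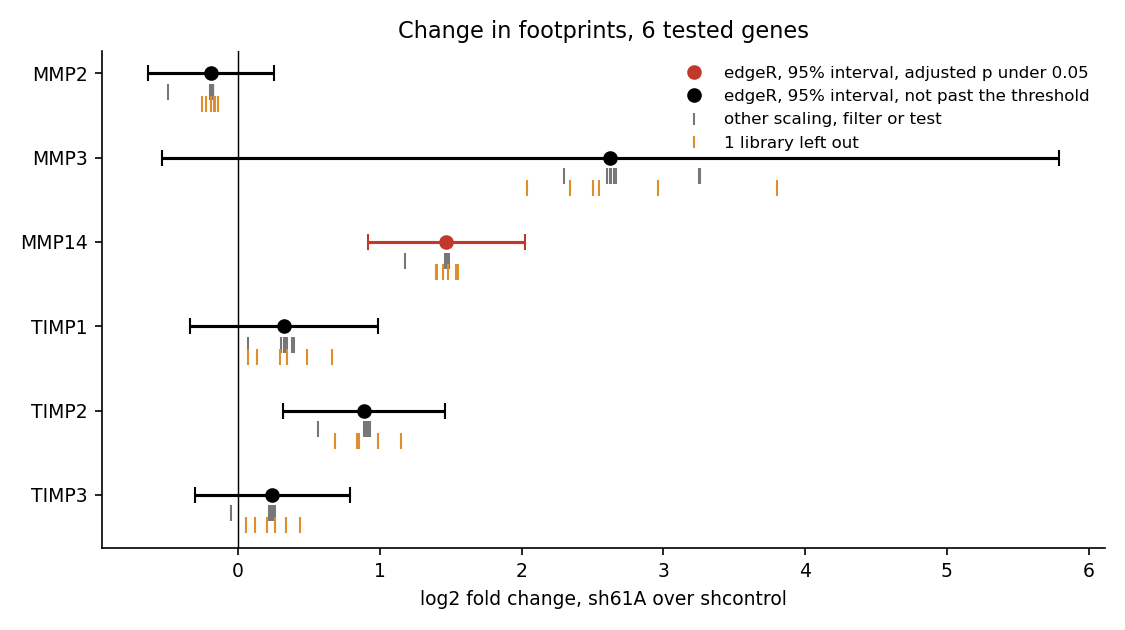
Log2 fold change in footprints, sh61A over shcontrol, for the 6 tested genes. Points and bars give the edgeR value and its 95% interval, grey ticks the values under another scaling, filter or test, and orange ticks those with 1 library left out. The intervals of MMP14 (0.91 to 2.03) and TIMP2 (0.32 to 1.46) lie above 0, and that of MMP3 is the widest.

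The 3 inhibitors did not keep a fixed division between libraries of the same group. TIMP2 had 0.598, 0.952 and 1.21 footprints for each TIMP1 footprint in sh61A libraries, a 2.02-fold range. The same ratio was 0.294, 0.586 and 1.27 in shcontrol libraries, a 4.34-fold range, and the groups overlapped. In both groups this ratio rose from library 1 to library 3. Over the shcontrol libraries the coefficient of variation of TIMP1 was 40.4%, where counting error alone would give about 3.002%. That of TIMP2 was 31.7%, where counting error would give about 3.88%. Over the sh61A libraries they were 23.9% for TIMP1 and 12.2% for TIMP2. For TIMP3 the coefficients were 26.3% in sh61A and 15.7% in shcontrol, all after TMM scaling. The 200 tested features nearest in average log2 CPM had medians of 15.9% in sh61A and 17.6% in shcontrol for TIMP1 and TIMP3. For TIMP2 these medians were 14.5% in sh61A and 18.6% in shcontrol. TIMP2 in sh61A and TIMP3 in shcontrol thus varied less than such features.

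Summed over genes, the inhibitors had 2.63, 2.76 and 2.10 footprints for each metalloproteinase footprint in sh61A libraries, against 2.33, 1.87 and 1.63 in shcontrol libraries. The groups overlapped and the log2 difference was 0.37 (exact permutation test, two-sided, p = 0.2, adjusted over the 6 ratios 0.3). MMP2 holds most of the metalloproteinase sum. When each gene was weighted equally on a log2(CPM + 0.5) scale, the difference was -0.52. That value rests mostly on MMP1 and MMP3, whose low counts make it depend on the added 0.5, and without them it was -0.12. No direction is given for the balance of inhibitors over enzymes.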

How the data were processed

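The deposited file holds raw counts per Ensembl gene ID, and per the file headers 6 columns are footprint libraries. The build hg38 and the tools fastp and Bowtie 1.3.1 are named in the submitters' processing notes. How reads were counted, with which annotation and on which strand, is not stated there. Control columns, named vec, were matched to the control hairpin by assay and replicate number. A further 6 columns, named for RNA, match no sample described here and were not used.

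Of 62492 features, filterByExpr kept 11653, which were scaled by TMM and tested with edgeR 4.0.16 (R 4.3.3). All 6 libraries entered the quasi-likelihood F-test (glmQLFit, glmQLFTest, two-sided), with Benjamini-Hochberg adjustment over all tested features and a threshold of 0.05. The SE was derived from the log2 fold change and F, and 95% intervals use its t quantile. Alternatives were DESeq2 1.42.0, limma 3.58.1 with voom, other scaling, other filters, removal of the 50 most abundant features, a replicate block and each library left out. All 7 genes are named. The genes and lists were chosen with earlier results of these data known. Lists of other matrix proteases, cell type markers and genes of like pattern were not analysed here, because no ID could be paired with a symbol.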

Additional observations from a re-analysis of the deposited data

How the results depend on the processing

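The direction of MMP2, MMP3, MMP14, TIMP1 and TIMP2 was the same under every alternative that tested them (14 for MMP3, 15 for the others). For MMP2, MMP3 and MMP14 the lack of overlap between groups largely fixed this. The groups of TIMP2 were apart after TMM scaling but overlapped as CPM of the library total, and those of TIMP1 overlapped in both. TIMP3 turned to -0.053 with library size alone. MMP14 passed in 12 of 15, with a value of 1.18 with library size alone and of 1.40 to 1.55 with 1 library left out. TIMP2 passed in 4, at 0.90 with DESeq2, 0.90 without a filter, 0.90 with at least 10 CPM in 3 libraries and 0.92 with limma voom, and 3 of these 4 fits also called over 1.5 times as many features. The features called over the whole table numbered 364 in edgeR, 834 with DESeq2, 735 without a filter, 602 with at least 10 CPM in 3 libraries, and 47 to 171 with 1 library left out. The causes were not tested. With the replicate number as a block 208 were called, and MMP14 kept its call (1.47, adjusted p = 0.0371 in edgeR). Over all tested features, deviations of same-numbered libraries correlated at -0.0065, -0.015 and 0.039. These values show no pairing over the table as a whole, and do not settle it for single genes. From library 1 to library 3 the CPM of TIMP1 fell and that of TIMP2 rose in both groups, with or without TMM scaling. TIMP3 fell in both groups after TMM scaling only. The block changed no other call among the 6 genes, and the adjusted p of TIMP1 was then 0.473 in edgeR. The inhibitor over enzyme difference, 0.37, became -0.52 with genes weighted equally and -0.12 when MMP1 and MMP3 were then left out (added after seeing the data), and ran from 0.25 to 0.51 with 1 library left out. MMP1 and MMP3 rest on 23 and 128 counts in all.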
